A study of Homo sapiens with 2 samples.

Results

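The small noncoding RNA loci of PLC/PRF/5 cells were chosen by symbol and level. A listed gene belonged to them when its symbol marked a small nucleolar RNA (snoRNA), a small Cajal body RNA (scaRNA), a microRNA (miRNA), a small nuclear RNA (snRNA), a 7SK or 7SL RNA or a Y RNA, and when its mean over both libraries was at least 0.2 CPM (tags scaled to the size of the library). Of 16424 listed genes, 499 had such a symbol and 371 reached the level. The other 128 lay under it, and 50 of these had exactly 0 CPM in both libraries. The level is a mean of both libraries, so a locus near it can enter through a high value in either. RN7SL566P, with 0.21 and 0.20 CPM, and SNORA50, with 0.25 and 0.16 CPM, lay just inside the limit. MIR1234, with 0.21 and 0.16 CPM, and MIR1538, with 0.17 and 0.20 CPM, lay just outside it. By class there were 62 box H/ACA snoRNA loci, 13 scaRNA loci, 149 miRNA loci, 24 snRNA loci, 16 loci of 7SK and 7SL RNA and 2 of Y RNA, and the rest were box C/D snoRNA loci.

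PLC/PRF/5 cells, which come from a human hepatoma, grow as a line in culture. Cap analysis of gene expression (CAGE) reads the 5′ ends of capped RNAs, so a value counts starts mapped to a locus and not the processed small RNA. The study asked which signals M2BPGi, a glycosylated form of Mac-2 binding protein, changes in such cells. The non-treated library came from cells without added M2BPGi and the M2BPGi-treated library from cells given 3 µg/ml of it for 6 h, with 1 library per condition. No difference between the libraries therefore has a replicate check, and in bulk RNA fewer cells with an RNA and less of it per cell cannot be told apart. The totals read back from the values were 24040209 and 24862942 tags, and 100% of values above 0 were whole tags within a rounding of 0.005 CPM, where 1 tag is 0.0416 and 0.0402 CPM. The 0 level allows up to 3 tags, or 0.125 and 0.121 CPM. Ratios are log2 of M2BPGi-treated to non-treated CPM after adding 0.1 CPM, which understates changes of low loci. Intervals are 95% Clopper-Pearson intervals of the tags without that addition, and they cover counting error only.

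Most snoRNAs and many miRNAs are cut from introns or exons of longer host transcripts, while U3, U13, most snRNAs and 7SK have promoters of their own. Box C/D snoRNAs guide ribose methylation and box H/ACA snoRNAs pseudouridylation of ribosomal RNA, scaRNAs guide the same changes in snRNAs, snRNAs build the spliceosomes, and 7SL RNA is the scaffold of the signal recognition particle. RNAs made by RNA polymerase II receive the cap that CAGE captures, whereas 7SL and Y RNAs are RNA polymerase III products that keep a triphosphate end.

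The mature miRNAs of the loci on which the miRNA results turn show which target sequences each would read if its precursor were processed. Of 143 miRNA symbols among the loci, 125 matched a mature sequence in RefSeq (GRCh38.p14), and 4 others are host gene symbols ending in HG. Among the 11 miRNA symbols with a difference of at least 2-fold and a mean of at least 1 CPM, 10 matched, and MIR3687 did not. The 14 mature sequences found for them carried 14 different seeds. For MIR21 only the 5p sequence was found, so the list may not hold every mature product. Capitals mark the seed, bases 2 to 8, and each run is written 5′ to 3′.
hsa-miR-21-5p: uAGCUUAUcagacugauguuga
hsa-miR-30a-5p: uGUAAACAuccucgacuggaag
hsa-miR-30a-3p: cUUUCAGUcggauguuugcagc
hsa-let-7i-5p: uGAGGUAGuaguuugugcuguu
hsa-let-7i-3p: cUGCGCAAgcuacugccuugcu
hsa-miR-191-5p: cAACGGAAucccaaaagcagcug
hsa-miR-191-3p: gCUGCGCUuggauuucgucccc
hsa-miR-193a-5p: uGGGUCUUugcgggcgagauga
hsa-miR-193a-3p: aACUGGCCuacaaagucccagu
hsa-miR-3648: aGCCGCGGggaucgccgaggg
hsa-miR-4444: cUCGAGUUggaagaggcg
hsa-miR-4453: gAGCUUGGucuguagcgguu
hsa-miR-4492: gGGGCUGGgcgcgcgcc
hsa-miR-5701: uUAUUGUCacguucugauu
Over all matched loci, 179 distinct mature sequences held 173 distinct seeds, and 5 seeds were shared by different mature sequences of several symbols. MIRLET7I shared its let-7 seed GAGGUAG with MIR4458. MIR4492 shared GGGCUGG with MIR5001 and MIR762. The other shared seeds joined MIR15B with MIR16-2, MIR3184 with MIR423, and MIR4426 with MIR4647.

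Among the loci with a mean of at least 10 CPM, SNORD3B-2 and SNORD3C, MIR3687, and RN7SL1 with RN7SL2 stood farthest from no difference, the symbol RN7SL593P sharing the values of RN7SL1. All 5 U3 symbols, which give the snoRNA that guides early cleavages of the ribosomal RNA precursor, were lower in the M2BPGi-treated library. RN7SL1 and RN7SL2, genes of the signal recognition particle RNA, were about 3-fold higher there, and MIR3687 was 4.66-fold higher. MIR21, MIR30A, MIRLET7I, MIR191 and MIR193A were each at least 2-fold lower. With 1 CPM added in place of 0.1 CPM, MIRLET7I (-0.89) and MIR193A (-0.81) were not, nor was MIR193A after rescaling (-0.97). MIRLET7I held exactly the values of a listed noncoding gene. MIR3648, MIR4453, MIR5701-1 and MIR4492 were also 2-fold lower, and of these only MIR3648 stayed so with 1 CPM added (-1.05). An entry of MIR4444-1 was more than 2-fold higher.

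Of the 371 loci, 12 were at least 2-fold higher (3.23%, against 0.63% of all 14436 genes with a mean of at least 0.2 CPM) and 32 were at least 2-fold lower (8.63%, against 1.77%). With a mean of at least 1 CPM, 7 of 297 loci were 2-fold higher (2.36%, against 0.386% of 13724 genes) and 20 were 2-fold lower (6.73%, against 1.18%). With an interval that also leaves out no change, the counts over the 371 were 10 higher (2.70%, against 0.547%) and 28 lower (7.55%, against 1.64%). Some loci repeat the same values under several identifiers. With each pair of values counted a single time, 10 were higher and 25 lower, or 6 and 15 with a mean of at least 1 CPM. Such counts, chosen after seeing the data, were not made over all genes. The counts of 12 and 32 became 6 (1.62%, against 0.236% of all 14436 genes) and 10 (2.70%, against 0.436%) with 1 CPM added in place of 0.1 CPM. Of the 44 loci past 2-fold, 17 had a mean under 1 CPM, where few tags stand behind a ratio. The median log2 ratio of the loci was -0.09, beside -0.06 over all 14436 genes, with 152 loci above 0 and 219 below. Their 5th and 95th percentiles were -1.23 and 0.67, and those of all genes were -0.69 and 0.49. The small RNA loci thus had a median near that of all genes and wider tails. The sets differed in level, as 297 of the 371 loci and 13724 of the 14436 genes had a mean of at least 1 CPM. Percentiles at a matched level were not computed. All genes also had more past 2-fold on the lower side, 256 beside 91 on the higher.

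**Figure D1:**
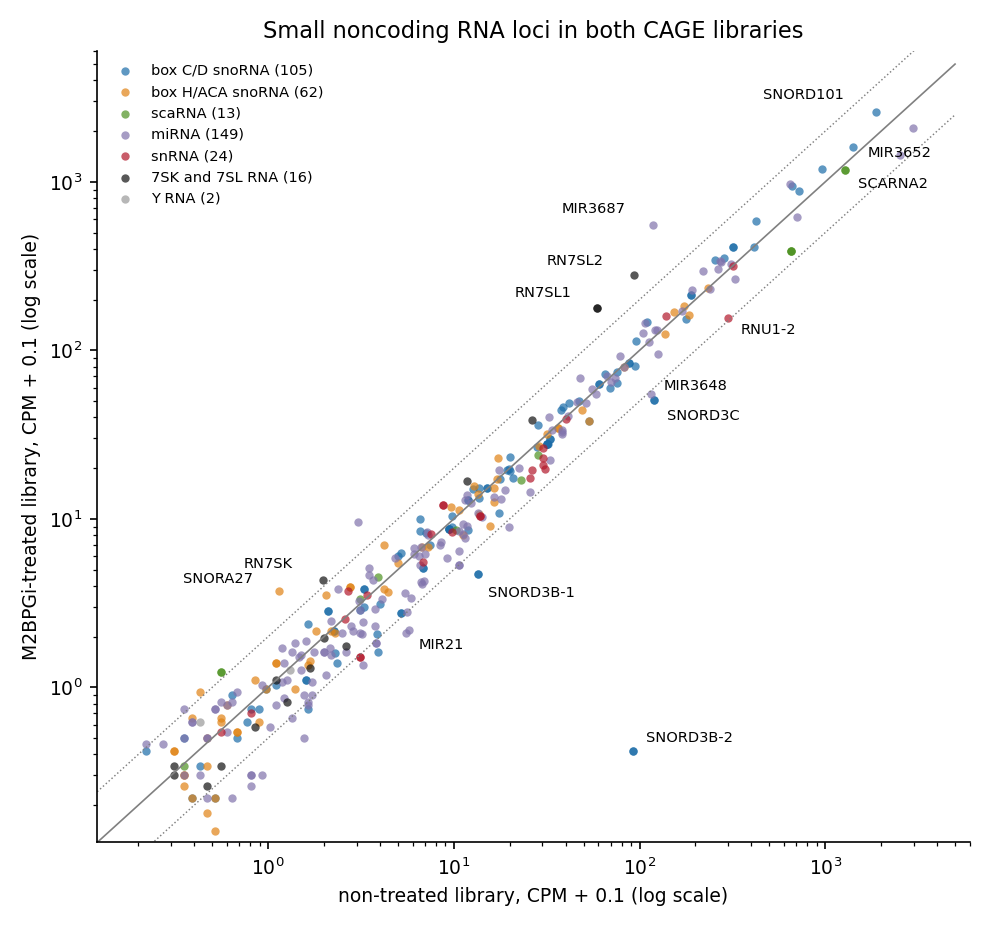
Each point is a small noncoding RNA locus, with its CPM plus 0.1 in the non-treated library on the x axis and in the M2BPGi-treated library on the y axis, both on log scales, coloured by RNA class; the solid line marks equal values and the dotted lines 2-fold. Most loci lie between the dotted lines, SNORD3B-2 lies far under them, and MIR3687, RN7SL1 and RN7SL2 lie above.

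The scatter of both libraries shows the range of levels, from 0.205 to 2540 CPM in the mean. In summed CPM, with shared values repeated, the loci held 29223 in the non-treated and 29070 in the M2BPGi-treated library, out of 941352 and 944054 over all listed genes. With each pair of values counted a single time, the 10 highest held 54.4% of the non-treated sum. A mean of at least 10 CPM was reached by 158 loci and of at least 100 CPM by 52. No locus had exactly 0 CPM in either library. Some lay at the 0 level of up to 3 tags in 1 library, such as SNORA55 with 10 tags without and 1 tag with M2BPGi.

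**Figure D2:**
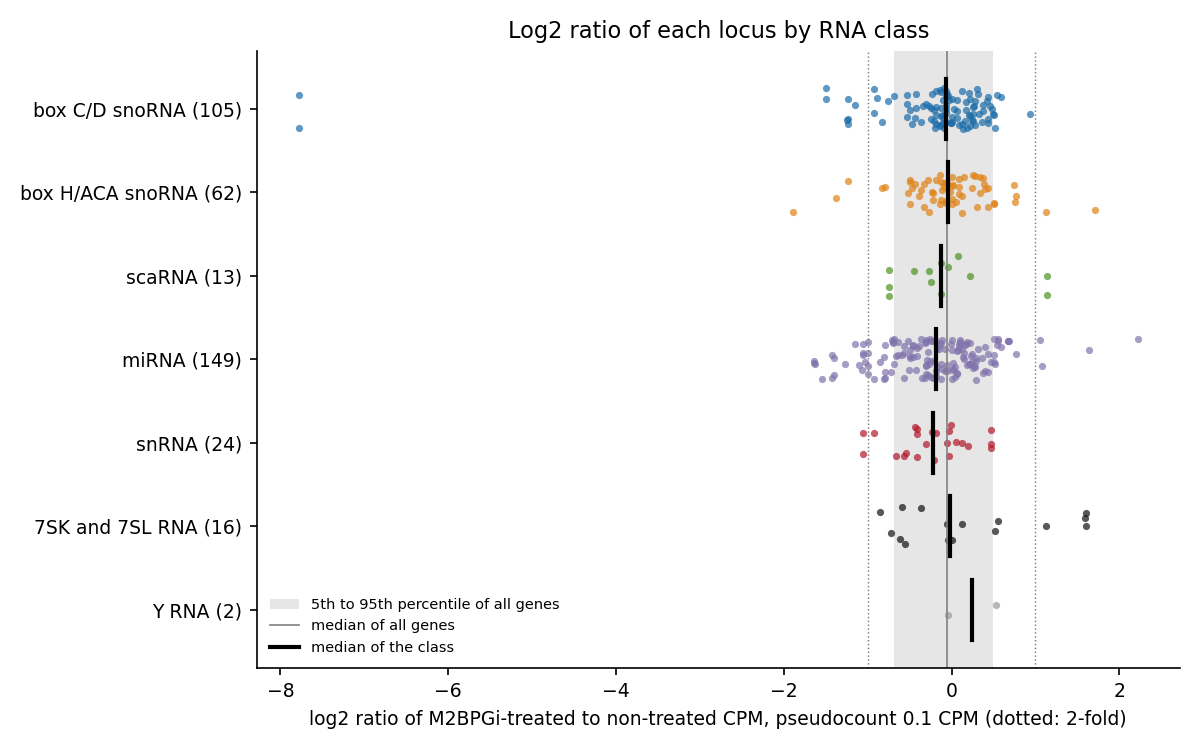
Each point is the log2 ratio of a locus (M2BPGi-treated to non-treated, x axis) in its RNA class (y axis, number of loci in brackets), with black bars at class medians and a grey band from the 5th to the 95th percentile of all genes. Class medians lie between -0.22 (snRNA) and 0.24 (Y RNA), and single loci reach from -7.78 to 2.22.

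By class, the median log2 ratio was -0.07 for box C/D snoRNA, -0.04 for box H/ACA snoRNA, -0.12 for scaRNA, -0.18 for miRNA and -0.22 for snRNA loci. It was -0.02 for 7SK and 7SL RNA, which turned to 0.01 when the libraries were rescaled to a median of 0 over the genes with a mean of at least 10 CPM. The plot by class shows that the points past 2-fold were spread over every class except Y RNA. Of the 32 lower loci, 18 were miRNA and 9 box C/D snoRNA loci, with 3 of box H/ACA snoRNA and 2 of snRNA. Of the 12 higher loci, 4 were miRNA and 4 were 7SK or 7SL loci, with 2 each of box H/ACA snoRNA and scaRNA. These class counts include loci that share their values with another locus.

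Symbols of small RNAs did not always stand for measurements of their own. By GENCODE v29 (GRCh38, not the hg19 build that the submitters' processing notes name), 358 of the 371 loci could be placed, 249 by identifier and 109 by symbol. Of those placed by identifier, 36 carried another name there, and 15 of the placed loci belonged to another type of gene. MIR4461, for example, had an entry whose identifier is that of MTND4LP30, a processed pseudogene of a mitochondrial gene, with 2532 and 1441 CPM. The other MIR4461 entry, which carries the identifier of the miRNA itself, had 5.37 and 3.54 CPM. The highest value under this symbol thus belongs to another gene, on the strand opposite the miRNA. SCARNA17 was listed under its own identifier and that of the host transcript SNHG22, and SCARNA2 also under that of a long noncoding RNA, AL356488.2.

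Identical values joined many of the loci. Both values were shared with another locus by 97 of the 371, in 45 groups, so that the loci held 319 distinct pairs of values. In 13 of the 45 groups the same symbol was listed under several identifiers, as for SNORD3A, SNORD3C, RNU11 and RNU12. In 19 groups different symbols lay within 5 kb of each other on the same strand, as for SNORD25, SNORD26, SNORD27 and SNORD28 in SNHG1, all with 31.5 and 27.7 CPM. The other 13 groups joined loci that were farther apart or not placed. Low values can coincide, as for SNORA30 on chromosome 16 and SNORA46 on chromosome 14, both with 0.21 and 0.32 CPM. Some of these groups had high values, as for SNORD50B and SNORD50A, which was not placed, both with 190 and 213 CPM. These examples were chosen after their values were seen.

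Values of host genes recurred at many loci as well. With a mean of at least 0.5 CPM, 56 loci held exactly the values of a listed gene on the same strand within 5 kb, and 26 more were within 5% of their host in both libraries. Here the host is the listed gene on the same strand that spans the locus, and the most abundant where there were several, among genes placed by identifier and without a small RNA symbol. A further 199 lay inside a listed gene with other values, at a median of 2.52% of its CPM, and 153 of them were under 10%. Among these 199, 133 had a log2 ratio of the same sign as the host. The remaining loci were 77 without such a host and 13 not placed. Of the 77, 8 lay inside a longer entry listed under a small RNA symbol, such as MIR210 in MIR210HG and SCARNA18 in the SCARNA17 entry of SNHG22.

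**Figure D3:**
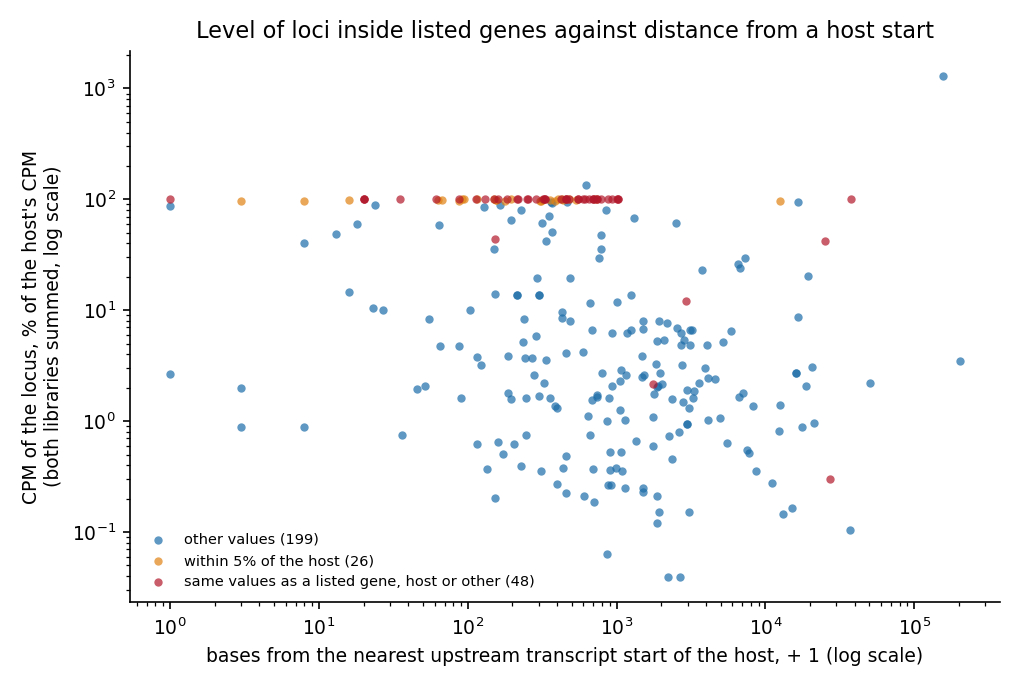
Each point is a small RNA locus inside a listed gene, with the distance from the nearest upstream transcript start of the host on the x axis (bases plus 1, log scale) and the CPM of the locus as a percentage of the host's on the y axis (log scale). Loci with the values of a listed gene or within 5% of the host lie mostly under 1100 bases from a start, and more distant loci mostly lie at a few percent.

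The plot of host share against distance shows where these loci lie. Of 35 loci less than 100 bases from a host start, 15 had the values of a listed gene or were within 5% of the host, and so were 35 of 90 loci at 100 to 500 bases. At 500 to 1100 bases it was 18 of 51, at 1100 to 5000 bases 2 of 63, and at 5000 bases or more 4 of 34. In all, 68 of 74 such loci lay under 1100 bases from a start, though many loci with other values lay as near. Where the values are identical, starts of the small RNA and starts of the host cannot be told apart.

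The 77 loci without a host, a grouping made after the values were seen, had a median log2 ratio of -0.54, with 4 higher and 19 lower by 2-fold or more (5.19% and 24.7%, against 0.63% and 1.77% of all genes). Counting each pair of values a single time left 65, with a median of -0.41, 4 higher and 14 lower. With 1 CPM added in place of 0.1 CPM, SNORD13, RNU11, MIR193A, MIR4453, MIR5701-1 and MIR4492 of this group were no longer 2-fold lower. RN7SK was then no longer 2-fold higher. The counts of the group with that addition were not computed, while the 32 lower loci among all 371 became 10. The 199 loci with values of their own inside a listed gene had a median of -0.04, with 6 higher and 11 lower (3.02% and 5.53%, against the same shares of all genes). Among the 56 loci with the values of a listed gene and the 26 within 5% of the host, 1 was higher and 1 lower. The 8 loci inside a longer small RNA entry held 0 of the higher and 2 of the lower. The loci without a host include the U3 genes other than SNORD3D, the U13, U4, U5, U11 and U12 genes, RN7SL1, RN7SL2, RN7SL3 and RN7SK, and 40 miRNA loci, 31 of these below 0.

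The box C/D snoRNAs were led in level by loci whose values equalled or neared those of their host. SNORD101 had 1873 CPM without and 2614 CPM with M2BPGi, exactly the values of RPS12, which encodes a protein of the small ribosomal subunit. SNORD54 had 1406 and 1602 CPM, the values of RPS20, and SNORD42B had 957 and 1198 CPM, the values of RPL23A, genes of the small and the large subunit. SNORD43, in the large subunit gene RPL3, had 661 and 947 CPM, or 95.3% of its host. SNORD95, in GNB2L1, which encodes the ribosomal scaffold RACK1, had 724 and 880.1 CPM. All 5 were higher in the M2BPGi-treated library, with log2 ratios of 0.48, 0.19, 0.32, 0.52 and 0.28. The summed CPM of the box C/D loci was 10425 and 12226 CPM, a log2 ratio of 0.23 (0.26, interval 0.25 to 0.27, with each pair of values counted a single time). Without the loci that hold a listed gene's values, the log2 ratio of the sums was 0.05.

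Host genes of ribosomal proteins made up a large share of the snoRNA values. Over both snoRNA classes, 50 loci lay in 27 such genes, with 43 distinct pairs of values, 30 above and 13 below 0, and a median log2 ratio of 0.09. The hosts themselves had a median of 0.32, and 26 of 27 were above 0. In SNHG genes and DANCR, which are hosts without a protein product, 14 loci had 10 distinct pairs, 5 above and 5 below 0. The other 85 loci lay in 50 hosts, with 27 distinct pairs above and 45 below 0 and a median of -0.09. These hosts include further noncoding ones, such as ZFAS1 and EPB41L4A-AS1. SnoRNA loci and their hosts could differ within a gene: RPL13A, a large subunit gene with 1527 and 2074 CPM, held SNORD32A with 65.1 and 72.0 CPM and SNORD35A with 68.8 and 59.9 CPM, all named after their values were seen.

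U3 was lower at all 5 of its symbols. Its sequence is shown because the copies are nearly the same, which leaves the assignment of their tags uncertain. It is the transcript of SNORD3A in GENCODE v29 (chr17:19188016-19188232, plus strand), written as DNA 5′ to 3′ with the letters of boxes C and D in capitals.
SNORD3A: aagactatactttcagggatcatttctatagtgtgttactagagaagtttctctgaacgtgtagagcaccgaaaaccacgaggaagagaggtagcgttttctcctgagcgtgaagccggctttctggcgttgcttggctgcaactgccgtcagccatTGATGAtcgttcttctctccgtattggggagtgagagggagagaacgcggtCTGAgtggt
The 217-base forms of SNORD3B-1 and SNORD3B-2 are identical to each other. Counted from 1 at the 5′ end, and with the base of SNORD3A named before that of the copy, they differ from SNORD3A by A78C. SNORD3C differs from it by G108A, and SNORD3D by A4G, C53T and A78C.

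SNORD3B-2 (ENSG00000201750 and ENSG00000262074, chr17:19063346-19064136) had 92.1 CPM without and 0.32 CPM with M2BPGi, or 2214 and 8 tags, a log2 ratio of -7.78 (interval -9.37 to -7.18). This was the lowest ratio among the 371 loci. With 1 CPM added in place of 0.1 CPM it was -6.14, outside that interval. SNORD3C (ENSG00000199298 and ENSG00000264940, chr17:19189665-19190245) had 119.7 CPM without and 51.0 CPM with M2BPGi, a log2 ratio of -1.23 (interval -1.33 to -1.14). SNORD3B-1, a copy with the sequence of SNORD3B-2 at these 217 bases, had 13.3 and 4.63 CPM and -1.50 (interval -1.85 to -1.21). SNORD3A, named after its values were seen, had 5.12 and 2.65 CPM and -0.92, and SNORD3D, which holds the values of another listed noncoding gene, had 1.54 and 0.64 CPM and -1.15, or -0.63 with 1 CPM added. Every copy was lower, but by very different amounts, and identical copies such as SNORD3B-1 and SNORD3B-2 cannot be told apart by their first bases. Summed over the 5 symbols, U3 had 232 CPM without and 59.2 CPM with M2BPGi, a log2 ratio of -1.97 (interval -2.05 to -1.89). Without SNORD3B-2 the sums were 139.6 and 58.9 CPM and the log2 ratio was -1.25 (interval -1.34 to -1.16). SNORD13, the U13 snoRNA that guides acetylation of small-subunit ribosomal RNA and has its own promoter, had 3.79 and 1.53 CPM, a log2 ratio of -1.25 (interval -1.89 to -0.75), or -0.92 with 1 CPM added. The SNORD113 to SNORD116 clusters, imprinted tandem arrays of box C/D genes, had 0 listed members.

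The box H/ACA snoRNAs were close to equal in sum, at 1412 and 1379.6 CPM, a log2 ratio of -0.03 (-0.03, interval -0.06 to -0.01, with each pair of values counted a single time). This difference was as small as the median of all genes with a mean of at least 10 CPM, -0.03, and it turned to 0.03 without the loci that hold a listed gene's values. SNORA21 in RPL23 had 234 and 236 CPM, within 5% of its host, and a further SNORA21 entry had 1.54 and 1.25 CPM. SNORA73A and SNORA73B, in the gene of the nucleotide exchange factor RCC1, had 173 and 184 CPM and 153 and 168 CPM. SNORA24 had the values of SNHG8, 183 and 162 CPM, and SNORA14B those of TOMM20, a receptor of mitochondrial import, 137 and 126 CPM. These 5 most abundant symbols had log2 ratios between -0.18 and 0.13, the main SNORA21 entry taken.

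SNORA27 was the box H/ACA locus with a mean of at least 1 CPM and a difference of at least 2-fold. It is shown as the GENCODE v29 transcript (chr13:27255401-27255526, plus strand), with the ACA box in capitals, 3 bases before the end as is typical of the class.
SNORA27: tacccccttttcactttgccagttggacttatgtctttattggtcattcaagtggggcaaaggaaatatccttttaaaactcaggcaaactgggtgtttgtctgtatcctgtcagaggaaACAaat
SNORA27 (ENSG00000207051) had 1.04 CPM without and 3.62 CPM with M2BPGi, or 25 and 90 tags, a log2 ratio of 1.71 (interval 1.15 to 2.50). Its host RPL21, a large subunit gene, had 429 and 538 CPM, so the locus held 0.482% of the host's CPM.

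The scaRNAs were lower in sum, at 4599 and 3594 CPM, a log2 ratio of -0.36 (-0.30, interval -0.32 to -0.28, with each pair of values counted a single time). SCARNA2, which guides methylation of U2 snRNA, had 1285 and 1183 CPM, a log2 ratio of -0.12. SCARNA17 and SCARNA18 shared 653 and 389 CPM, a log2 ratio of -0.75 (interval -0.78 to -0.71). With SCARNA2 they were listed under 5 identifiers that hold 2 distinct pairs of values, and these carried most of the class sum. Without SCARNA2 the log2 ratio of the sums was -0.73. SCARNA13, in SNHG10, had 28.1 and 23.8 CPM, and SCARNA7, in the importin gene KPNA4, had 23.0 and 16.9 CPM, both lower. SCARNA10, chosen after its values were seen, had 0.46 and 1.13 CPM under both of its identifiers, a log2 ratio of 1.14 from few tags (interval 0.25 to 2.45).

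The snRNA class holds loci of the spliceosomal snRNAs, of U7 and of pseudogenes. Of its 21 distinct pairs of values, 16 were below 0, where the median log2 ratio of all genes was below 0 as well (-0.06). In sum they had 1053 and 876 CPM, a log2 ratio of -0.27 (-0.27, interval -0.30 to -0.24, with each pair of values counted a single time). Without RNU1-2, an alternative chosen after seeing the data, the sums were 754 and 719.7 CPM and the log2 ratio was -0.07. RNU1-2, a gene of the U1 snRNA that recognises 5′ splice sites, had 299 CPM without and 156 CPM with M2BPGi, a log2 ratio of -0.93 (interval -0.99 to -0.88). RNU1-4, another U1 gene, had 0.71 and 0.60 CPM. U1 genes are near-identical copies, so which of them the tags came from is uncertain. The span of RNU1-2 lies within CROCC, the gene of the ciliary rootlet protein, which had 17.7 and 17.3 CPM.

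The 5 genes of U5, the snRNA at the centre of the spliceosome, were all lower and close to each other in level. RNU5A-1 had 30.2 and 22.8 CPM, RNU5B-1 26.3 and 19.4 CPM and RNU5D-1 29.9 and 20.6 CPM. RNU5E-1 had 31.0 and 19.6 CPM and RNU5F-1 29.9 and 26.1 CPM. Their log2 ratios ran from -0.66 for RNU5E-1 to -0.19 for RNU5F-1, and every interval left out no change. Summed, U5 had 147 and 108.6 CPM, a log2 ratio of -0.44 (interval -0.51 to -0.37). Of the genes of U4, which pairs with U6, RNU4-2 had 25.6 and 17.2 CPM, a log2 ratio of -0.57, while RNU4-1 had 7.40 and 8.04 CPM, with an interval that held no change (-0.18 to 0.42). They differ at 4 of 141 bases, C37T, G88A, C99A and C113T with RNU4-1 named before RNU4-2, so their first 36 bases are the same.

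RNU2-2, a U2 gene at the start of WDR74, which encodes a ribosome assembly factor, had 319 and 316 CPM, a log2 ratio of -0.01 that turned to 0.02 when the libraries were rescaled. RNU7-1, for the U7 snRNA of histone mRNA processing, had 138 and 159 CPM, within 5% of its host C12orf57. The U4 pseudogene RNU4-8P had 40.0 and 39.2 CPM. These abundant loci did not share the lower values of U1 and U5. In the minor spliceosome, which removes a rare class of introns, the genes went different ways. The U11 and U12 genes are shown as GENCODE v29 transcripts on the plus strand (chr1:28648600-28648733 and chr22:42615244-42615393), with the Sm site, where the Sm protein ring binds, in capitals.
RNU11: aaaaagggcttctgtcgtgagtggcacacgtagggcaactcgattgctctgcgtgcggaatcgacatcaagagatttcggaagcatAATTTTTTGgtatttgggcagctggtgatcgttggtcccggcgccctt
RNU12: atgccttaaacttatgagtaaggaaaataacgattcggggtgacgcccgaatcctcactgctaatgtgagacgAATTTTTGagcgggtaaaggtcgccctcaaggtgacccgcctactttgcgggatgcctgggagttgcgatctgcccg
RNU11 had 3.04 CPM without and 1.41 CPM with M2BPGi, a log2 ratio of -1.06 (interval -1.73 to -0.51), or -0.75 with 1 CPM added. RNU4ATAC, which holds the values of the listed gene RP11-204L24.2, had 13.8 and 10.3 CPM and -0.41. RNU12 had 8.61 and 11.9 CPM and 0.47 (interval 0.21 to 0.74). RNU1-4, RNU4-1, RNU4-2, RNU4ATAC, RNU12 and the U5 genes other than RNU5F-1 were named after their values were seen.

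**Figure D4:**
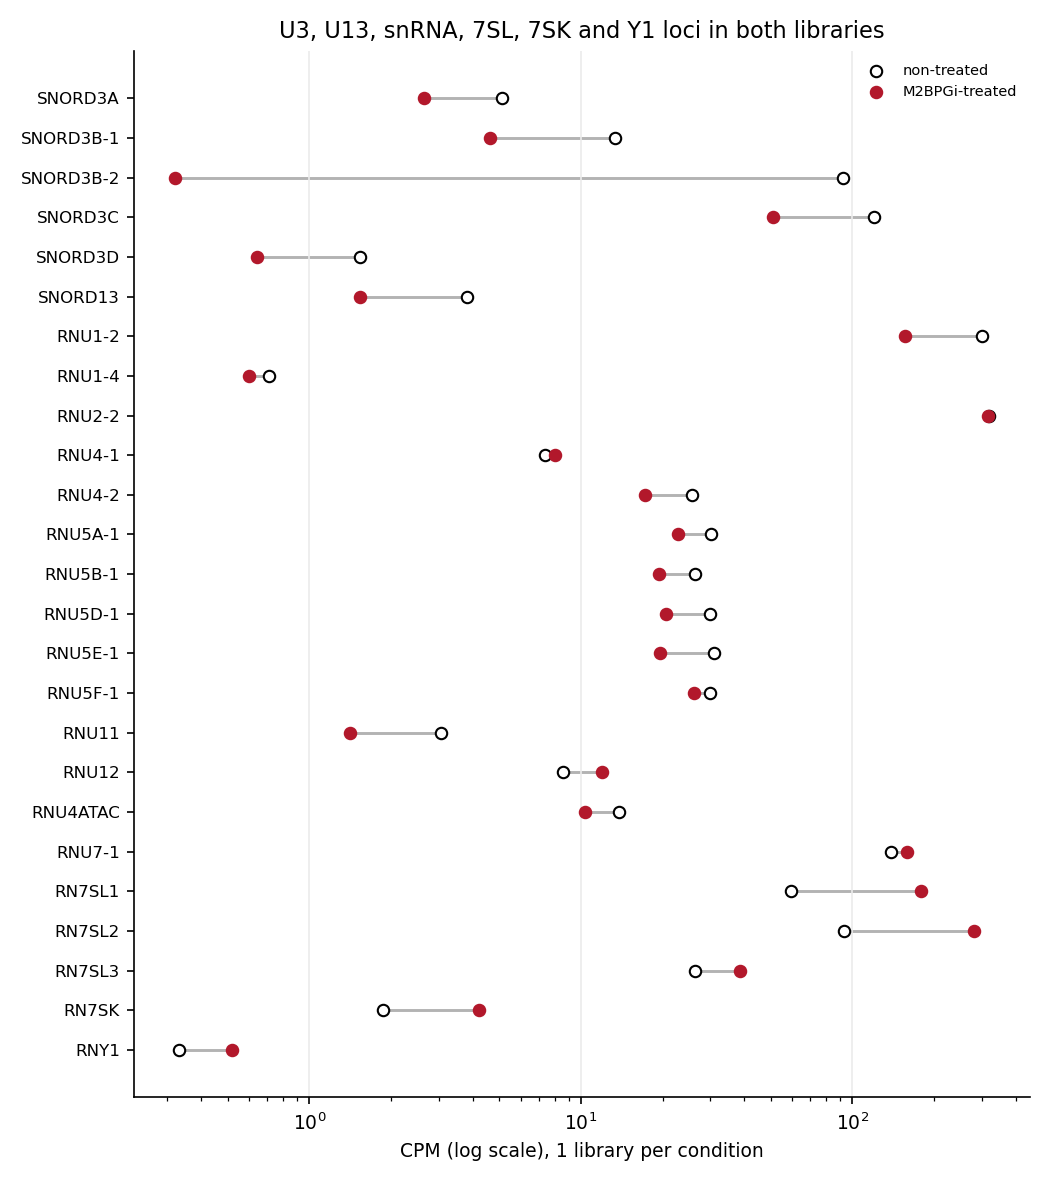
Each line joins the CPM of a locus in the non-treated library (open circle) to that in the M2BPGi-treated library (filled circle), on a log axis, for U3, U13, snRNA, 7SL, 7SK and Y1 genes. All U3 and U5 genes are lower in the M2BPGi-treated library, and the 3 genes of 7SL RNA and RN7SK are higher.

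The 7SL genes went the other way in tags, although their RNA keeps a triphosphate end and not the cap that CAGE captures. What the tags at these loci stand for was not tested. RN7SL2 had 93.3 CPM without and 280.1 CPM with M2BPGi, a log2 ratio of 1.59 (interval 1.52 to 1.66). RN7SL1 had 59.2 and 179 CPM and 1.60 (interval 1.51 to 1.68), and the pseudogene symbol RN7SL593P held the same values. RN7SL3 had 26.2 and 38.5 CPM and 0.55 (interval 0.41 to 0.70). The copies were thus all higher, RN7SL1 and RN7SL2 by about the same ratio and RN7SL3 by less, although near-identical copies leave the assignment of their tags uncertain. In sum RN7SL1, RN7SL2 and RN7SL3 had 179 and 498 CPM, a log2 ratio of 1.48 (interval 1.43 to 1.53). RN7SL247P had 11.7 and 16.8 CPM, and the other pseudogene symbols of 7SL and 7SK had 2.54 CPM or less in both libraries. NEMF, a gene of ribosome quality control which lies 413 bases from RN7SL3 on the same strand, had 34.1 and 45.3 CPM.

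RN7SK, the RNA that holds the elongation factor P-TEFb inactive, had 1.87 CPM without and 4.22 CPM with M2BPGi, a log2 ratio of 1.13 (interval 0.66 to 1.71), or 0.86 with 1 CPM added. The sum of the 16 loci of 7SK and 7SL RNA was 262 and 706 CPM, a log2 ratio of 1.43 (1.38, interval 1.33 to 1.43, with each pair of values counted a single time). Y RNAs bind the Ro protein. Among their loci, the pseudogene symbol RNY4P10 had 1.21 and 1.17 CPM, and RNY1 had 0.33 and 0.52 CPM, from 8 and 13 tags. Their sum differed by no more than counting error (log2 ratio 0.13, interval -0.54 to 0.81). The plot of the structural RNA genes shows U3 and U5 on the lower and 7SL on the higher side of their non-treated values.

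The miRNA loci with the highest values were again close to those of hosts or belonged to unusual entries. MIR3652 had 2981 CPM without and 2099.5 CPM with M2BPGi, within 5% of HSP90B1, which encodes a chaperone of the endoplasmic reticulum. MIR3189 had 705 and 620.1 CPM, within 5% of GDF15, the gene of a stress cytokine. MIR3143, without a host and 828 bases from the histone gene HIST1H2BK on the opposite strand, had 643 and 966 CPM, a log2 ratio of 0.59. In sum the miRNA loci had 11471 and 10287 CPM, a log2 ratio of -0.16 (-0.16, interval -0.16 to -0.15, with each pair of values counted a single time) and -0.05 without MIR3652. The sums include entries whose identifiers belong to other types of gene, chiefly that of MIR4461. Without these entries, an alternative chosen after seeing the data, the log2 ratio was -0.01, and without MIR3652 as well it turned to 0.19.

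MIR3687 (ENSG00000264063, chr21:8987370-8987430) had 118 CPM without and 552 CPM with M2BPGi, a log2 ratio of 2.22 (interval 2.16 to 2.28), the highest among the 371 loci. MIR3648 (ENSG00000264462, chr21:8986999-8987178), which lies 191 bases before it on the same strand, had 115 CPM without and 55.1 CPM with M2BPGi, a log2 ratio of -1.06 (interval -1.16 to -0.97). These neighbours thus stood on opposite sides of no difference. Both hairpins lie in the spacer of the ribosomal RNA repeat, which exists in many copies, and the authors discarded ribosomal tags before mapping. How that step treated these loci was not tested.

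MIR21 (ENSG00000199004, chr17:59841266-59841337), whose product is abundant in many tumours, had 5.45 CPM without and 2.01 CPM with M2BPGi, a log2 ratio of -1.40 (interval -1.94 to -0.96). Its host VMP1, an autophagy gene, had 242 and 159.5 CPM. MIR30A (ENSG00000207827) had 5.66 and 2.09 CPM and -1.40 (interval -1.93 to -0.96), and its host, the long noncoding RNA LINC00472, 60.6 and 28.7 CPM. MIR191 (ENSG00000207605) had 19.7 and 8.81 CPM and -1.15 (interval -1.40 to -0.93), and its host DALRD3 24.9 and 15.4 CPM. In all 3 the host was lower as well. The ratio of LINC00472 (-1.07) lay inside the interval of MIR30A, and those of VMP1 (-0.60) and DALRD3 (-0.68) were nearer to 0 than the interval of their locus. MIRLET7I, a member of the let-7 family that restrains growth genes, had 3.16 and 1.25 CPM and -1.27 (interval -1.99 to -0.72), the values of the noncoding gene RP11-631N16.2. MIR193A, without a host, had 5.49 and 2.69 CPM and -1.0 (interval -1.47 to -0.59).

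Also 2-fold lower with a mean of at least 1 CPM were MIR4453, MIR5701-1 and MIR4492. MIR4453, listed also under the identifier of MIR4453HG, had 3.70 and 1.73 CPM, MIR5701-1 1.54 and 0.72 CPM and MIR4492 1.54 and 0.68 CPM. Their log2 ratios were -1.05, -1.0 and -1.07. With 1 CPM added they were -0.78, -0.56 and -0.60, so none stayed 2-fold lower, and MIR5701-1 was at -0.97 after rescaling. MIR4444-1 stood on the other side. An entry placed on chromosome 3 and holding the values of RP11-642N14.1 had 2.95 and 9.41 CPM, a log2 ratio of 1.64 (interval 1.28 to 2.08). The entry in HNRNPA3, the gene of an RNA-binding protein, had 192 and 227 CPM. The same symbol thus stood for loci of different places and levels.

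**Figure D5:**
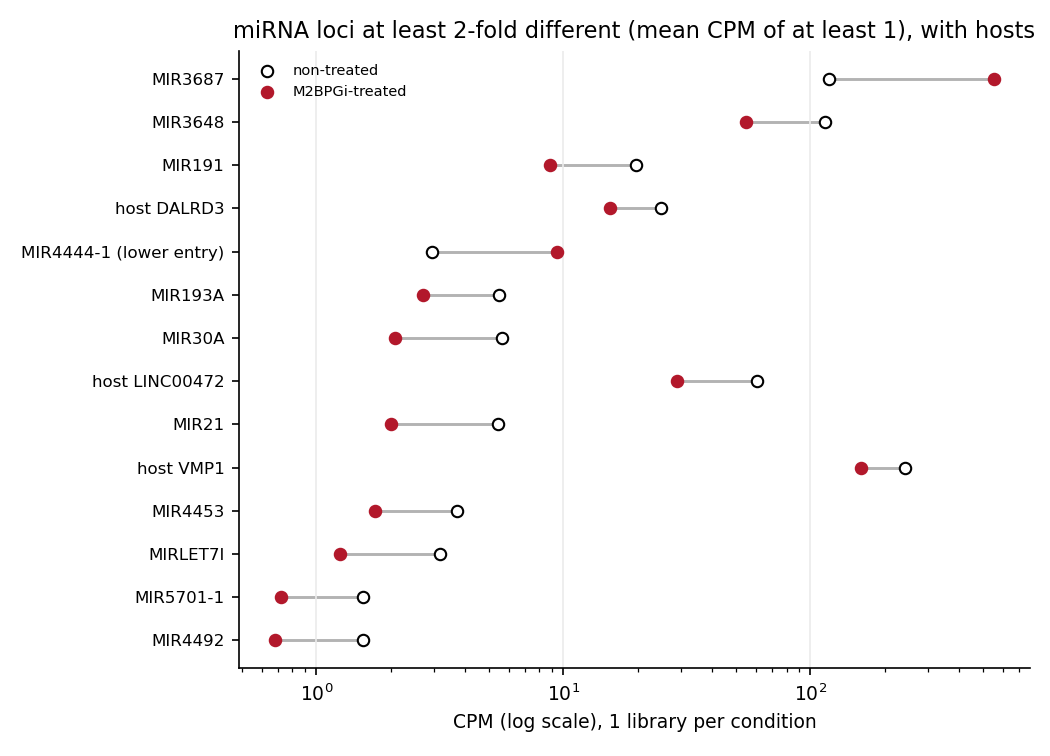
Each line joins the CPM of an miRNA locus, or of its host gene where the host has other values, in the non-treated library (open circle) to that in the M2BPGi-treated library (filled circle), on a log axis. MIR3687 and the lower entry of MIR4444-1 are higher in the M2BPGi-treated library, and the other 9 loci and the 3 hosts are lower.

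The plot of the miRNA loci also holds the 3 hosts with other values. Among miRNA host gene symbols, named after their values were seen, MIR22HG had 25.7 and 14.2 CPM, a log2 ratio of -0.85, and MIR17HG, the transcript of an oncogenic miRNA cluster, 9.03 and 5.75 CPM and -0.64. MIR210HG and MIR210, the locus of a hypoxia-induced miRNA, shared 10.5 and 5.23 CPM and -0.99. MIR181A2HG, the fourth such symbol, had 0.83 and 0.93 CPM, with an interval that held no change (-0.78 to 1.09).

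Genes of the proteins that make or bind these RNAs were read in 6 lists. In each list, 0 genes were 2-fold higher and 0 were 2-fold lower, where 0.63% and 1.77% of all genes were. The 13 genes for box C/D particles had a median log2 ratio of 0.06, with the assembly factor ZNHIT6 highest (14.0 and 20.0 CPM), followed by the core protein gene NHP2L1 (100.5 and 135 CPM). The core protein genes NOP58 (198 and 185 CPM) and NOP56 (67.9 and 64.2 CPM) were lowest. The 10 genes for box H/ACA particles had a median of 0.03, from PARN (47.8 and 44.0 CPM), a nuclease, and COIL (28.2 and 28.1 CPM), the coilin gene, to NHP2 (345 and 408 CPM) and NAF1 (6.24 and 7.72 CPM), a core and an assembly protein.

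The 16 miRNA pathway genes had a median of -0.09, lowest in DGCR8 (9.36 and 6.15 CPM), the partner of Drosha, and AGO3 (13.2 and 9.13 CPM), an Argonaute. The Dicer partners TARBP2 (31.3 and 42.4 CPM) and PRKRA (82.5 and 90.1 CPM) were highest. The 30 listed of 32 genes for snRNA transcription, processing and assembly (SMN1 and SMN2 were not listed) had a median of -0.04. Among them the integrator genes INTS2 (9.65 and 5.91 CPM) and INTS3 (9.19 and 7.04 CPM) were lowest and the snRNA promoter factors SNAPC3 (12.1 and 18.8 CPM) and SNAPC2 (4.95 and 7.72 CPM) highest. The 14 listed of 15 genes for proteins on 7SK, 7SL and Y RNA (HEXIM1 was not listed) had a median of 0.08. Signal recognition particle genes SRP68 (43.6 and 56.1 CPM) and SRP72 (49.1 and 60.2 CPM) were highest, and CCNT1 (30.5 and 23.1 CPM) and MEPCE (48.2 and 40.2 CPM), which encode a P-TEFb subunit and the 7SK capping enzyme, lowest. RNA polymerase III genes (17) had a median of 0.06, with the subunit genes POLR3F (7.74 and 13.9 CPM) and CRCP (18.9 and 29.4 CPM) highest and POLR3A (17.7 and 11.8 CPM) and BDP1 (19.9 and 16.3 CPM), a subunit and an initiation factor, lowest.

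Markers of hepatocytes and hepatoma were found in both libraries, at very different levels. All 16 had a mean of at least 1 CPM, with 4838 and 4484 CPM in sum. KRT18 was highest with 1249.8 and 1592 CPM, and TTR was lowest with 3.62 and 2.49 CPM. AFP had 695 and 566 CPM, whereas ALB had 8.82 and 7.04 CPM. The log2 ratios of the 16 markers were below 0 in 10 and above 0 in 6, and the part of this in the results was not tested. Of 6 leukocyte and Kupffer cell markers 2 were listed, CD68 with 21.2 and 20.5 CPM and PTPRC at 0 in both libraries. Of 6 stromal markers 2 were listed, with 5.20 and 4.18 CPM in sum and COL3A1 highest at 4.53 and 3.42 CPM. None of 4 endothelial markers was listed.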

How the data were processed

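CAGE libraries of non-treated and M2BPGi-treated PLC/PRF/5 cells were compared. Before mapping with BWA, the authors removed tags that were ribosomal or held undetermined bases. They grouped 5′ ends with CAGEr and deposited CPM values with 2 decimals for each gene. The identifiers are human, while the methods name mouse mm9 and the submitters' processing notes name hg19, BWA and HISAT2. How tags were assigned to genes, or to near-identical copies, is not given in the sources used here. The members and lists were chosen with earlier results of these data known. From the CPM, log2 ratios with a pseudocount of 0.1 CPM, counts of loci past 2-fold, medians and sums were computed, and tags were read back for intervals. With 1 library per condition, no test was made. Genes named in the text were the 5 most abundant symbols of each class, loci past 2-fold with a mean of at least 1 CPM, the 2 loci on each side of the 0.2 CPM limit, the 2 highest and 2 lowest genes of each list, and host genes; other genes, neighbours among them, were named after their values were seen, and symbols that share a seed are all those found. Places came from GENCODE 29 (GRCh38). The grouping by relation to listed genes was added after the data were examined. Alternatives were other pseudocounts, levels and fold thresholds, a rescaling of the libraries, shared values counted a single time, sums without the most abundant symbol or RNU1-2, and loci with a listed gene's values, host gene symbols or entries of another gene type left out. A host is the listed gene, placed by identifier and without a small RNA symbol, that spans a locus on the same strand, and with several the most abundant. Count tests were not run. The code was tested on simulated data. Python 3.11.15, numpy 2.4.6, pandas 2.3.3, scipy 1.17.1 and matplotlib 3.10.9 were used.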

Additional observations from a re-analysis of the deposited data

How the results depend on the processing

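The median log2 ratio of the loci stayed between -0.09 and -0.07 under every alternative tried. The 12 loci at least 2-fold higher became 6 with a pseudocount of 0.5 CPM, 6 with 1 CPM, 7 with a mean of at least 1 CPM, 26 with at least 1 tag in either library and 22 with a fold of 1.5. The 32 lower loci became 13, 10 and 20 under the same pseudocounts and mean. They became 35 with at least 1 tag in either library and 68 with a fold of 1.5. Shares of all genes were not computed for a pseudocount of 0.5 CPM, at least 1 tag or a fold of 1.5. Counts under these settings are therefore not set against all genes. Without the most abundant symbol, the log2 ratio of class sums was 0.17 for box C/D snoRNA, -0.73 for scaRNA, -0.05 for miRNA, -0.39 for snRNA and 1.34 for 7SK and 7SL RNA. With shared values of a symbol family counted a single time it was 0.25 for box C/D snoRNA, -0.40 for scaRNA and 1.38 for 7SK and 7SL RNA. In an alternative chosen after seeing the data, without loci that hold a listed gene's values, it was 0.05 for box C/D snoRNA, -0.19 for miRNA and, with the sign turned, 0.03 for box H/ACA snoRNA. Without entries of another gene type, also chosen after seeing the data, it was -0.40 for scaRNA and -0.01 for miRNA, and without these and the most abundant symbol the sign turned, to 0.19 for miRNA. Without RNU1-2, again chosen after seeing the data, it was -0.07 for snRNA. Apart from loci left out by construction, the cause was not tested. The 36 alternatives for these counts, medians and sums that moved less, the count of 35 among them, gave counts within 1.5 times or values within the interval. Some of them were also chosen after seeing the data (values shared under any name counted a single time, and host gene symbols left out). Of the values of named loci under alternatives, 98 stayed within their intervals and 8 did not, among them SNORD3B-2 at -6.14 with a pseudocount of 1 CPM. Of 22 named loci past 2-fold, 13 remained so with that pseudocount and 20 after rescaling. Of 53 named loci, 53 kept their sign with a pseudocount of 1 CPM and 52 after rescaling, which moved the median of all genes from -0.06 to -0.03. No paired analysis was possible because the conditions hold a single library each. The exact binomial test of tags, the exact test with an assumed variation and trimmed-mean scaling were not run. The intervals rest on the same tags, read back from rounded CPM, and those that leave out no change are not corrected for the number of loci. Depth limits the 17 loci past 2-fold with a mean under 1 CPM, and near-identical copies limit the U1, U3, U4 and 7SL loci. Similar copies may also limit the U5 loci. Sequences of copies were compared for U3 and U4 and not for U1, U5 or 7SL.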
